A study of Rattus norvegicus with 119 samples.

Results

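The transcripts described here encode subunits of the oxidative phosphorylation machinery, the 4 respiratory chain complexes of the inner mitochondrial membrane together with cytochrome c and ATP synthase. The set holds 47 genes of the 16922 that carry a symbol on the array, and was defined by gene name: 20 subunits of complex I, 4 of complex II, 6 of complex III, cytochrome c (Cycs), 8 of complex IV and 8 of ATP synthase, also called complex V. Each gene was read from its probe with the highest mean signal. All 47 genes were on the array and all passed the filter on low signal, which left 12691 genes for testing.

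Bladder urothelium, the epithelium that lines the bladder, was scraped from Sprague-Dawley rats after daily oral dosing for 3, 28 or 90 days, and 1 animal was hybridised per one-colour (Cy3) array. Pioglitazone was given as its hydrochloride at 16 mg/kg/day (low dose) or 63 mg/kg/day (high dose), rosiglitazone as its maleate at 10 mg/kg/day, and control animals received the 0.5% methylcellulose vehicle alone. Both drugs are thiazolidinediones, which activate the nuclear receptor PPAR-gamma and are used to lower blood glucose. Females and males were dosed separately, which gives 24 groups by treatment, sex and time, and the scrapings were taken 1 day after dosing ended. Ages are not given in the sources used here.

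Complex I (NADH dehydrogenase) and complex II (succinate dehydrogenase) pass electrons from nutrient breakdown to ubiquinone, complex III passes them on to cytochrome c, and complex IV (cytochrome c oxidase) hands them to oxygen. Complexes I, III and IV pump protons as they do so, and ATP synthase uses the return flow of protons to make ATP. The genes measured here are all nuclear genes, and their transcription in other tissues is known to depend on NRF-1, GABP, the estrogen-related receptors and the coactivator PGC-1alpha. Cytochrome c also has a role outside respiration, as its release from mitochondria triggers caspase activation.

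Of the 119 arrays, 116 were used: 28 of 29 at the low and 28 of 30 at the high pioglitazone dose, all 30 under rosiglitazone and all 30 under vehicle. The submitters marked the other 3 as failing quality control, namely high-dose pioglitazone female day 3 replicate 2, high-dose pioglitazone male day 3 replicate 5 and low-dose pioglitazone male day 90 replicate 5. With these 3 arrays put back, 0 members were called in any comparison of a treatment with vehicle over both sexes. Among the arrays used, the median log2 signal was between 6.396 and 6.633, and the median correlation of an array with the others was typically 0.98. It was 0.817 for high-dose pioglitazone female day 3 replicate 3 and 0.861 for low-dose pioglitazone female day 28 replicate 5. Called differences over all times that include these 2 arrays are given with and without them. Values at day 3 of the high dose and day 28 of the low dose include them unless stated otherwise. Of the uroplakins, the membrane proteins that define urothelium, Upk1a, Upk1b, Upk2 and Upk3a had vehicle means of 17.58, 17.75, 16.22 and 17.89 (log2), and Upk3b 9.77. Genes of other cell types also read high, among them Hba-a2 of red cells at 17.78 and Actg2 of smooth muscle at 14.4. Slide and hybridisation batch are not given in the sources used here.

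The promoters of the 4 members with the called rises described below are shown first, as the 250 bases before each gene's start in RefSeq on GRCr8, read 5′ to 3′ on the gene's own strand. That of Cycs lies at chr4:80984768-80985017 on the minus strand and that of Atp5a1 (now Atp5f1a, the alpha subunit of ATP synthase) at chr18:73567287-73567536 on the plus strand. That of Atp5f1 (now Atp5pb, a subunit of the peripheral stalk) lies at chr2:196123738-196123987 on the minus strand and that of Uqcrc1, a core protein of complex III, at chr8:118467973-118468222 on the plus strand. Capitals mark matches, on either strand, to the motifs listed after the sequences, so that a match on the other strand appears as its reverse complement.
Cycs: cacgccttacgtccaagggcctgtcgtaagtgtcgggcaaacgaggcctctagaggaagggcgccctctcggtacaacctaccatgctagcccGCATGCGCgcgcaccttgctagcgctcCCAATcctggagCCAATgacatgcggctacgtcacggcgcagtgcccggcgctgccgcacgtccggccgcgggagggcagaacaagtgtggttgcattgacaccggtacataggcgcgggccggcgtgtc
Atp5a1: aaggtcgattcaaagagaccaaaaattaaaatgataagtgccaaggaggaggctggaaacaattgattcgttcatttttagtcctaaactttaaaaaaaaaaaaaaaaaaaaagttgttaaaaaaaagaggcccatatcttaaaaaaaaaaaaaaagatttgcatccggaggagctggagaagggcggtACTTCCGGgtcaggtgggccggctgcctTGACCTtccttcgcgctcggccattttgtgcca
Atp5f1: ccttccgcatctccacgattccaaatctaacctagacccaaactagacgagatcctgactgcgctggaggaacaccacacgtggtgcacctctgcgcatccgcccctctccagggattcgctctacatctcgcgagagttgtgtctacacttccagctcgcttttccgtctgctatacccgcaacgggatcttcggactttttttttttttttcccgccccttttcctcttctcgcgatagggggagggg
Uqcrc1: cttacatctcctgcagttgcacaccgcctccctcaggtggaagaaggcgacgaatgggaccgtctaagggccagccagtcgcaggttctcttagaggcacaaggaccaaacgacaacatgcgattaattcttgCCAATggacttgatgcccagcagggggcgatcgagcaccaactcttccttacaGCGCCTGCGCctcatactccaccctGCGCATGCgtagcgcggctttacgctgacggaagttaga

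Of the 47 members, 41 had a promoter in the table. The motif searches covered both strands of the 250 bases and were set against all 33469 promoters. The NRF-1 site (GCGCA and GCGC with any single base between them) was found in 4 of the 41 (9.76%, against 3.75% of all promoters) and the NRF-1 core GCATGCGC in 4 (9.76%, against 2.2%). Cycs and Uqcrc1 were among the members with the core, at 157 and 39 bases before the start. The GABP site CCGGAAGT was found in 5 members (12.2%, against 3.1%), Atp5a1 among them, and the estrogen-related receptor site TCAAGGTCA in 1, Atp5g3 (2.44%, against 0.388%). The core hexamer of nuclear receptor sites, AGGTCA, which lies within the preceding site and within the direct repeat, was found in 10 (24.4%, against 14.1%). CCAAT was found in 12 (29.3%, against 34%). A perfect PPAR direct repeat, which is AGGTCA repeated after any single base, was found in 0 of the 41 (0.0508% of all promoters), as was the YY1 site AAGATGGC (1.63% of all promoters). The core can overlap the longer NRF-1 site. Atp5f1 held 0 of these motifs in this window. Letter matches of this kind are a description of the sequence and no measure of binding.

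Averaged over both sexes and all 3 times, 1 member rose with each treatment and 0 fell. The linear model (limma) gave each of the 24 groups its own mean and p-values were adjusted by Benjamini-Hochberg over all 12691 genes, with an adjusted p under 0.05 as the threshold for a call. With low-dose pioglitazone the 1 member called, Uqcrc1, compares with 2.84% of all genes called in either direction and 1.61% called higher. With high-dose pioglitazone it was Cycs, where 6.6% of all genes were called and 2.72% called higher. With rosiglitazone it was Cycs again, where 5.63% were called and 2.51% called higher. A single call among 47 genes is close to these shares. At an unadjusted p under 0.05 there were 9 members with each treatment, where 18.6%, 19% and 20.5% of all genes had such a p with low- and high-dose pioglitazone and with rosiglitazone. The 3 treatments were set against the same vehicle arrays, so their differences are not independent of each other. The p-values set each difference against the spread between animals within groups, which was estimated for each gene over all 24 groups together. In such bulk samples a change in the number of cells of a type and a change in RNA per cell cannot be told apart.

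Cycs, the soluble carrier that shuttles electrons between complexes III and IV, had a log2 signal of 12.06 at the lowest, 12.99 at the median and 13.54 at the highest among the 28 low-dose pioglitazone arrays. The same 3 values were 12.44, 13.17 and 13.84 with high-dose pioglitazone and 12.64, 13.06 and 13.48 with rosiglitazone, against 12.22, 12.83 and 13.43 with vehicle. The ranges overlapped in every pairing of a treatment with vehicle. The difference from vehicle was 0.33 ± 0.07 (log2, SE) with high-dose pioglitazone, a 1.25-fold rise with an adjusted p of 0.00104 in limma, with a positive sign in 6 of the 6 sex-by-time groups. With rosiglitazone it was 0.24 ± 0.07, or 1.18-fold (limma adjusted p 0.0251, positive in 5 of 6), and with low-dose pioglitazone 0.21 ± 0.07 (limma adjusted p 0.0934, positive in 5 of 6), which did not pass. The low-dose value passed without low-dose replicate 5 (0.24, limma adjusted p 0.0426) and with the mean of both Cycs probes (limma adjusted p 0.023). Without the 2 arrays of low correlation the Cycs difference with the high dose was 0.29 and remained called. The positive sign of high-dose females at day 3 depended on the array of low correlation in that group, which read 13.63. The others there read 12.67, 12.67 and 13.18 and averaged below vehicle. In females at day 28 the means with the high dose and with vehicle were nearly equal. The rosiglitazone call was lost without vehicle replicate 1 or 3 or rosiglitazone replicate 1, 2 or 4 (limma adjusted p 0.0564 to 0.162), where leaving out a replicate removed that number from all 6 groups of the treatment.

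A second probe for Cycs gave the same direction. Its differences were 0.27 at the low pioglitazone dose, 0.40 at the high dose and 0.35 under rosiglitazone (limma adjusted p 0.0159, 2.29e-05 and 0.000178, in that order, from a fit over all named probes), so that all 3 passed with this probe. Within groups the 2 probes correlated at 0.653 across the 116 arrays. Rodent genomes hold many processed copies of the cytochrome c gene, and whether either probe also reads such copies was not tested.

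The 2 Cycs calls within one sex and one day were both in females at day 90. Low-dose pioglitazone females read 12.06, 12.70, 12.72, 13.04 and 13.08 and overlapped with the vehicle group, with a difference of 0.13. In females the 5 high-dose pioglitazone arrays read 13.08, 13.17, 13.29, 13.30 and 13.84, the 5 rosiglitazone arrays 13.25, 13.28, 13.35, 13.35 and 13.36, and the 5 vehicle arrays 12.42, 12.48, 12.54, 12.72 and 12.77. Every female array of either treatment lay above every female vehicle array. The female differences were 0.75 ± 0.17 with high-dose pioglitazone and 0.73 ± 0.17 with rosiglitazone (SE), and both passed (limma adjusted p 0.0084, where 1.26% of all genes were called, and 0.00876, where 2.46% were).

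In males at day 90 Cycs read 12.97, 13.33, 13.51 and 13.53 with low-dose pioglitazone. It read 12.88, 12.90, 13.42, 13.49 and 13.56 with high-dose pioglitazone and 12.70, 12.70, 12.84, 12.85 and 13.34 with rosiglitazone, against 12.64, 12.77, 12.77, 12.81 and 12.94 with vehicle. The 4 low-dose males lay above all 5 vehicle males, whereas the other treatments overlapped with them. The male differences of 0.55 at the low pioglitazone dose, 0.47 at the high dose and 0.10 under rosiglitazone did not pass (limma adjusted p 0.452, 0.261 and 0.909, where 0.173%, 0.622% and 0.0315% of all genes were called). The difference between the sexes in the Cycs effect, averaged over times, was -0.33 for low-dose pioglitazone (female minus male, 95% interval -0.62 to -0.05), -0.09 for high-dose pioglitazone and 0.10 for rosiglitazone, and none passed (limma adjusted p 0.998, 0.909 and 0.999). The female call for high-dose pioglitazone was lost without its replicate 4 (limma adjusted p 0.0585).

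**Figure D1:**
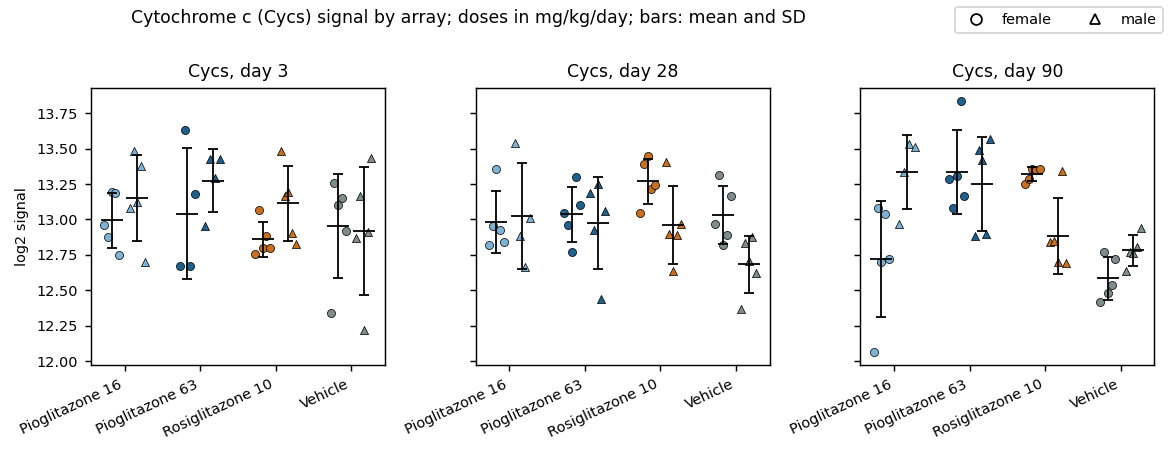
Log2 signal of Cycs on each array, with one panel per dosing time, circles for females and triangles for males, and bars for the mean and SD of each group of 4 or 5 animals. At day 90 all 5 high-dose pioglitazone females (13.08 to 13.84) and all 5 rosiglitazone females (13.25 to 13.36) lie above the 5 vehicle females (12.42 to 12.77), while at day 3 and day 28 the treated and vehicle groups overlap.

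Over both sexes, the Cycs difference with high-dose pioglitazone was 0.22 at day 3, 0.15 at day 28 and 0.61 ± 0.12 (SE) at day 90, of which only the last passed (limma adjusted p 0.000432). With rosiglitazone the differences were 0.05, 0.26 and 0.42, and with low-dose pioglitazone 0.14, 0.15 and 0.34, none of them called (limma adjusted p 0.0503 for rosiglitazone at day 90 and 0.364 for the low dose at day 90). Vehicle animals themselves read lower at day 90: their Cycs signal averaged 12.94 ± 0.39 at day 3, 12.86 ± 0.26 at day 28 and 12.68 ± 0.16 at day 90 (SD, n = 10 each), a difference over time that did not pass (limma F test, adjusted p 0.345). The test of whether the high-dose effect differed between days did not pass either (limma F test, p 0.0205, adjusted p 0.766). The rise is therefore called at day 90 without being shown to differ from that at the earlier times. The time course read differently with the second probe and in rosiglitazone males, and neither difference was tested. With the second probe the differences at days 3, 28 and 90 were 0.37, 0.12 and 0.33 at the low dose of pioglitazone, 0.48, 0.12 and 0.60 at the high dose, and 0.37, 0.21 and 0.47 under rosiglitazone. Of these, only the day 90 values at the high dose and under rosiglitazone passed (limma adjusted p 0.000411 and 0.0162 over all named probes, against 0.0914 for the high dose at day 3). In rosiglitazone males the first probe gave 0.19, 0.28 and 0.10 at the 3 times.

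Day 90 of high-dose pioglitazone was the one time point over both sexes with called members. It had 3, Cycs and the ATP synthase subunits Atp5a1 and Atp5f1, all of them higher, where 4.24% of all genes were called and 1.85% called higher, and 14 members had an unadjusted p under 0.05 (15.8% of all genes). Without the 2 arrays of low correlation 5 members were called there, with Ndufa1 and Cyc1 in addition. Neither array is from day 90, so the day 90 differences stayed the same and only the estimate of the spread changed. The share of all genes called there without these arrays was not counted. In the other 8 comparisons by day, 0 members passed in limma. With low-dose pioglitazone 3 members had an unadjusted p under 0.05 at day 3 (8.87% of all genes had), 2 at day 28 (10.7%) and 1 at day 90 (6.96%), while 0.0236%, 0.347% and 0.52% of all genes were called. With the high dose there was 1 at day 3 (10.5%) and 1 at day 28 (6.22%), while 0.0709% and 0.559% of all genes were called. With rosiglitazone there were 7 at day 3 (15.7%), 4 at day 28 (11.4%) and 10 at day 90 (14.6%), while 0.323%, 1.72% and 1.92% of all genes were called. The members' share at an unadjusted p was above that of all genes at day 90 of the high dose (14 of 47) and of rosiglitazone (10 of 47), and below it in the other 7 comparisons by day.

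Atp5a1, which forms part of the catalytic head of ATP synthase, read 16.15, 16.18, 16.32, 16.39 and 16.48 in high-dose pioglitazone females at day 90, against 15.70, 15.81, 15.82, 16.06 and 16.24 in vehicle females. In males it read 16.04, 16.24, 16.26, 16.35 and 16.75 with the high dose, against 15.84, 15.88, 16.08, 16.20 and 16.28 with vehicle. Treated and vehicle ranges overlapped in each sex. The difference was 0.33 ± 0.10 (log2, SE), 1.25-fold, with a limma adjusted p of 0.0294. The call was lost without vehicle replicate 1 or 3 or high-dose replicate 2, 3 or 5 (limma adjusted p 0.0586 to 0.109). Its differences were 0.17 at day 3 and -0.04 at day 28.

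Atp5f1, which belongs to the stalk that holds the head in place, read 15.10, 15.13, 15.21, 15.22 and 15.45 in high-dose females at day 90, against 14.79, 14.81, 14.86, 15.05 and 15.12 in vehicle females. Males read 15.03, 15.08, 15.17, 15.31 and 15.56 with the high dose, against 14.76, 14.82, 14.91, 14.99 and 15.02 with vehicle. The male ranges did not overlap, and the female ranges overlapped by a single array on each side. The difference was 0.32 ± 0.09 (log2, SE), 1.24-fold (limma adjusted p 0.0236). This call was lost without vehicle replicate 1 or 3 or high-dose replicate 2 (limma adjusted p 0.0534 to 0.112). At day 3 and day 28 the differences were 0.15 and -0.03. For rosiglitazone at day 90 the differences were 0.13 for Atp5a1 and 0.10 for Atp5f1, and for low-dose pioglitazone 0.15 for each, none of them called.

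**Figure D2:**
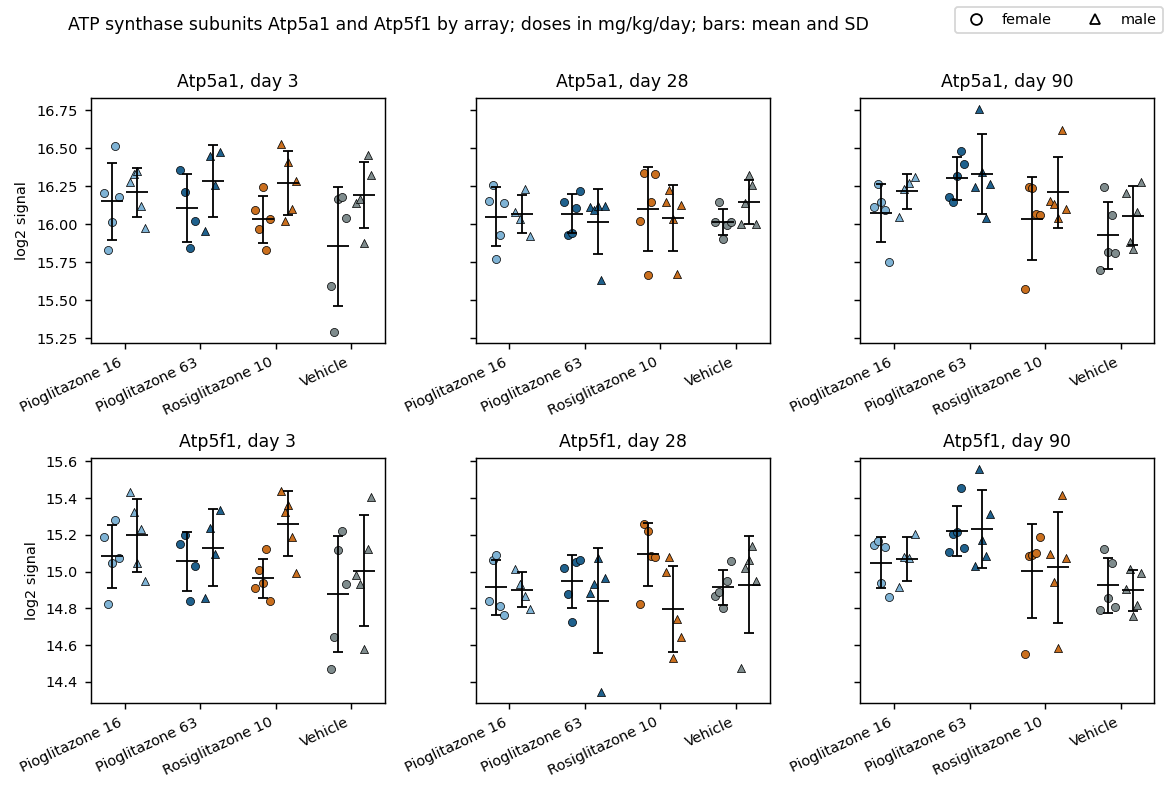
Log2 signal of the ATP synthase subunits Atp5a1 (upper row) and Atp5f1 (lower row) on each array, by dosing time, with circles for females, triangles for males and bars for mean and SD of each group of 4 or 5 animals. At day 90 the high-dose pioglitazone arrays centre above vehicle for both genes (differences of 0.33 and 0.32, log2), and the single low arrays of high-dose males at day 28 and of rosiglitazone females at day 90 stand apart from their groups.

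The remaining members at day 90 of high-dose pioglitazone mostly lay above vehicle without passing the test. The difference was positive for 42 of 47 members, with a median of 0.14 against 0.00 over all genes tested, of which 49.8% were positive. It was negative for Uqcrq (-0.33), Atp5d (-0.21), Ndufs7 (-0.03), Ndufa4 (-0.01) and Ndufs3 (0.00 after rounding). By complex the medians were 0.11 for complex I, 0.11 for complex II, 0.15 for complex III, 0.21 for complex IV and 0.20 for ATP synthase. The 34 further subunits described below leaned less at this day and dose. Of these, 21 were positive, with a median of 0.06, and 0 were called in limma, where 4.24% of all genes were called. Chosen after their values were seen, Ndufa1 and Ndufc2, accessory subunits of complex I, stood at 0.30 each, and Cyc1, the cytochrome c1 of complex III, at 0.26 (limma adjusted p 0.0555, 0.0634 and 0.0565, in that order). Scaling changed the signs and the median little, with 45 of 47 positive after quantile normalisation (median 0.18) and 44 after centring on the 75th percentile (median 0.17). It did change the number of members called at this day and dose, which was 9 after quantile normalisation and 5 after that centring.

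Rosiglitazone at day 90 also had 42 of 47 members above vehicle (median 0.10, against -0.04 over all genes, of which 42.6% were positive), and low-dose pioglitazone 32 (median 0.05, against 0.01). Complex IV stood highest among the complexes with rosiglitazone, with a median of 0.19 and 8 of 8 subunits positive. Of the 34 further subunits 25 were positive with rosiglitazone at day 90, with a median of 0.08. At day 28 the members did not lean either way: 22 of 47 were positive at the low dose, 21 at the high dose and 24 with rosiglitazone, with medians of -0.01, -0.01 and 0.01. At day 3 the counts were 36, 36 and 31, with medians of 0.08, 0.08 and 0.04 (all genes 0.04, -0.04 and 0.04). These comparisons share the vehicle arrays of each day. Averaged over the 47 genes, high-dose pioglitazone arrays read 13.58 ± 0.09 at day 3 (log2, SD, n = 8), 13.49 ± 0.12 at day 28 and 13.60 ± 0.10 at day 90 (n = 10 each), against 13.49 ± 0.15, 13.50 ± 0.10 and 13.46 ± 0.07 with vehicle (n = 10 each).

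**Figure D3:**
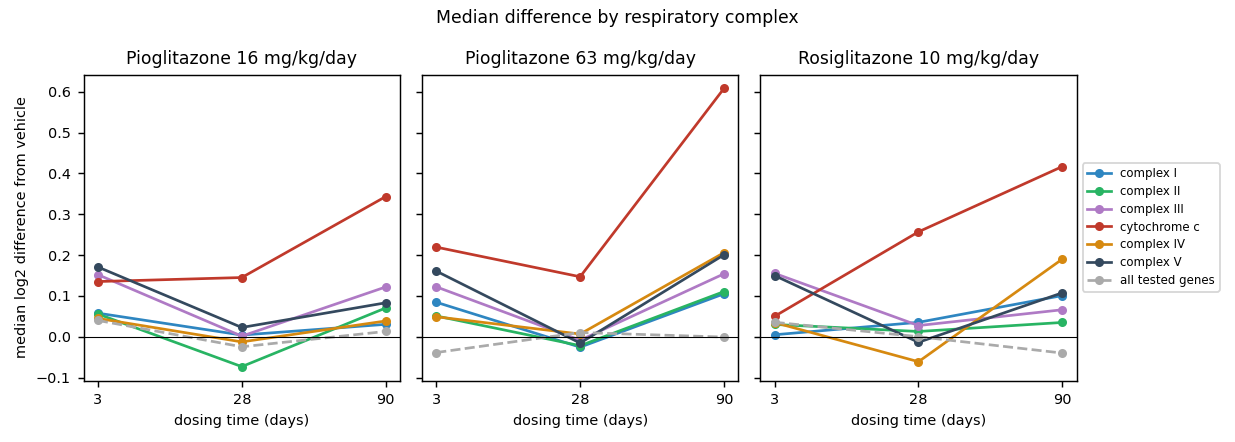
Median log2 difference from vehicle of the members of each respiratory complex (solid lines; cytochrome c is a single gene) and of all tested genes (dashed), at 3, 28 and 90 days of dosing, spaced evenly on the axis, with one panel per treatment. With high-dose pioglitazone the medians lie near 0 at day 28 and between 0.11 and 0.21 at day 90 for the 5 complexes, with cytochrome c at 0.61.

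**Figure D4:**
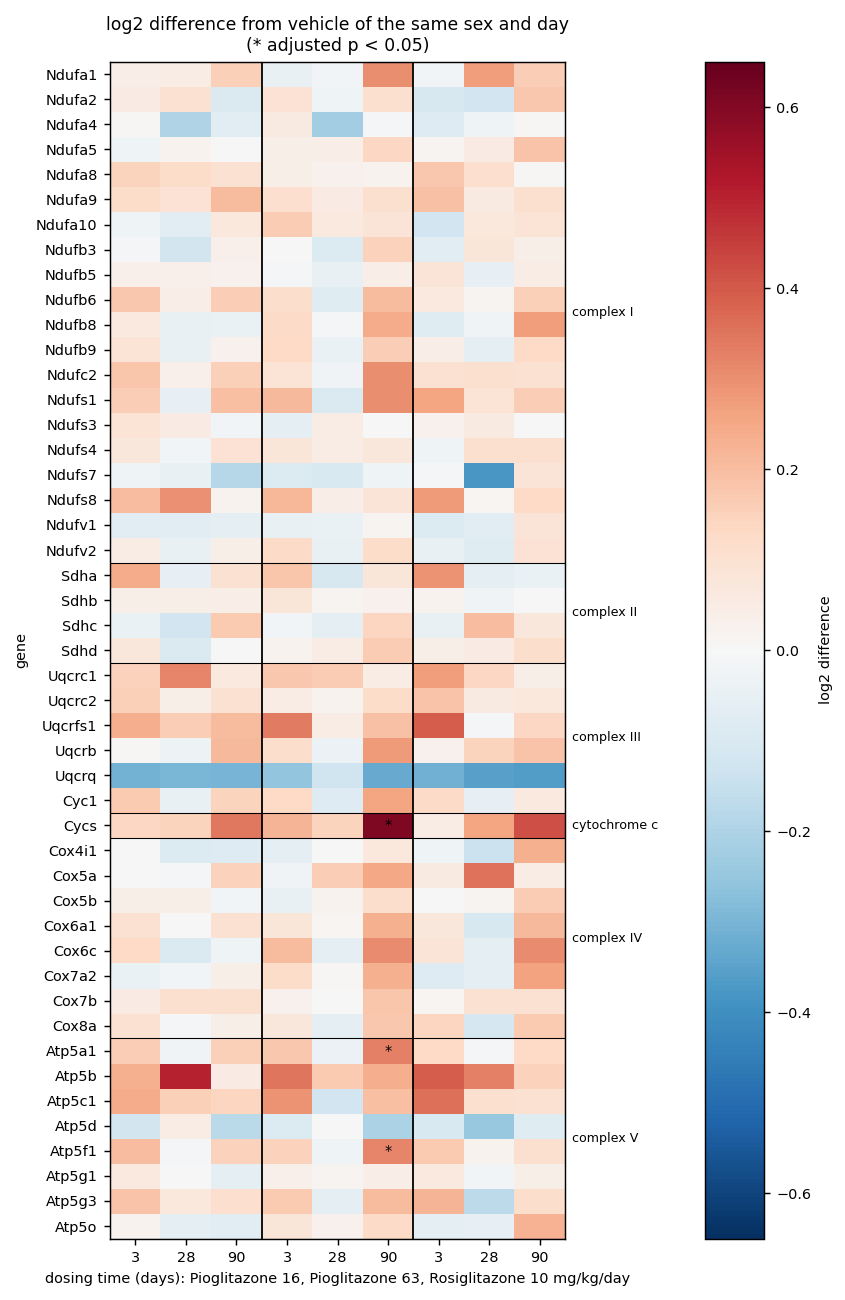
Log2 difference from vehicle of each of the 47 members (rows, by complex) at 3, 28 and 90 days with low- and high-dose pioglitazone and with rosiglitazone (columns), averaged over the sexes, red for higher and blue for lower than vehicle. The asterisks mark the 3 called differences, Cycs, Atp5a1 and Atp5f1 at day 90 of high-dose pioglitazone.

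Among complex III subunits, Uqcrc1, which helps build the core of the complex on the matrix side, read 12.42 at the lowest, 12.95 at the median and 13.33 at the highest with low-dose pioglitazone. The corresponding values were 12.52, 12.90 and 13.23 with high-dose pioglitazone and 12.26, 12.96 and 13.28 with rosiglitazone, against 11.90, 12.80 and 13.23 with vehicle. All 4 ranges overlapped, and the vehicle range reached lowest. The low-dose difference was 0.18 ± 0.05 (log2, SE), 1.13-fold, positive in 6 of 6 combinations (limma adjusted p 0.0458). At the high dose the difference was 0.13 and under rosiglitazone 0.15, and neither passed (limma adjusted p 0.139 and 0.0726), although the rosiglitazone value passed without vehicle replicate 4 (limma adjusted p 0.0441) and after quantile normalisation (0.0496), and high minus low dose was not called for any member. By day the low-dose difference was 0.15, 0.32 and 0.06 at days 3, 28 and 90.

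The Uqcrc1 call sat close to the threshold. It was lost when vehicle replicate 1, 2 or 3, or one of replicates 1 to 4 of the low dose, was left out (limma adjusted p 0.0779 to 0.166), and under the 6 other settings named in the closing section. Without the 2 arrays of low correlation it held (0.18, limma adjusted p 0.0301).

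The other complex III subunits differed from vehicle in both directions, without a call. The Rieske iron-sulphur protein Uqcrfs1 gave the largest positive differences of the complex, 0.20, 0.19 and 0.18 with low- and high-dose pioglitazone and with rosiglitazone (limma adjusted p 0.157, 0.153 and 0.185), and the high-dose value passed without replicate 4 of that dose (0.25, limma adjusted p 0.0316). Uqcrq, a small accessory subunit, gave the largest negative ones of all 47 members, -0.30, -0.24 and -0.34 (limma adjusted p 0.159, 0.271 and 0.0704), negative in 5 of 6 combinations with each treatment. Its arrays ranged from 4.96 to 7.70 with low-dose pioglitazone, 5.07 to 7.89 with high-dose pioglitazone and 5.56 to 7.78 with rosiglitazone, against 6.28 to 8.08 with vehicle. Its probe was the one member lost when the lower 50% of genes by signal were left out. With rosiglitazone Uqcrq fell at an adjusted p of 0.0238 (limma) once the 2 arrays of low correlation were left out. Neither array is from rosiglitazone or vehicle, and the difference stayed at -0.34. Without vehicle replicate 4 it fell at 0.0312 (limma adjusted p, difference -0.42).

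Complex I, the largest group, had 13 of 20 subunits above vehicle at the low dose and 15 under either of the other treatments, with medians of 0.03, 0.07 and 0.05, and 0 called in limma (3, 1 and 2 at an unadjusted p under 0.05). Its extremes were Ndufs8, an iron-sulphur subunit, at 0.17 with low-dose pioglitazone, and Ndufs1, the largest iron-sulphur subunit, at 0.14 at the high dose and 0.17 under rosiglitazone. The Ndufs1 values were 0.066 and 0.093 when vehicle replicate 1 of each group was left out. Ndufs7, which carries the last iron-sulphur cluster before ubiquinone, lay lowest with each treatment (-0.09, -0.07 and -0.10, the last being -0.014 without rosiglitazone replicate 3). Ndufa4 is counted here by its symbol, although its protein was later assigned to complex IV.

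Complex II, the only complex that is also an enzyme of the citric acid cycle, stayed close to vehicle, with 3, 4 and 3 of 4 subunits positive. Its values ran from -0.01 for Sdhd to 0.10 for the flavoprotein Sdha with low-dose pioglitazone, and from 0.02 for Sdhc to 0.08 for Sdhd with high-dose pioglitazone, the last 2 being the membrane anchors. With rosiglitazone they ran from 0.00 for the iron-sulphur protein Sdhb to 0.07 for Sdhc. In limma 0 of the 4 were called, and 0 had an unadjusted p under 0.05 with any treatment.

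Complex IV subunits were positive in 6 of 8 cases at the low dose and in 8 of 8 both at the high dose and under rosiglitazone, with medians of 0.03, 0.09 and 0.06. The highest in each were Cox7b at 0.09, Cox6c at 0.15 and Cox5a at 0.15, and the lowest Cox4i1 at -0.06, 0.00 and 0.02. In limma 0 were called over both sexes (0, 2 and 0 at an unadjusted p under 0.05). The direction of Cox4i1 with high-dose pioglitazone changed with the scaling and is not settled. Cox4i1 had the smallest p of all members in the test of whether the rosiglitazone effect differs between days (limma F test, p 0.00117, adjusted p 0.198), its effect being 0.11 lower at day 28 and 0.26 higher at day 90 than at day 3.

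A single fall was called in the 18 comparisons within one sex and one day. Cox8a, a small subunit of complex IV, read 15.27, 15.70, 15.98, 15.99 and 16.06 in rosiglitazone males at day 28, against 16.04, 16.07, 16.09, 16.24 and 16.29 in vehicle males. The groups overlapped by one array on each side. The difference was -0.35 ± 0.10 (log2, SE; limma adjusted p 0.0478, where 1.02% of all genes were called). The value depended on replicate 3 of the rosiglitazone males, without which it was -0.22 (limma adjusted p 0.747), and the call was also lost without rosiglitazone replicate 4 or vehicle replicate 1, 2, 4 or 5. The call was lost under 7 other settings too, among them quantile normalisation (-0.32, limma adjusted p 0.0934), no trend (-0.35, 0.0692) and array weights (-0.15, 0.599). Cox8a differences in rosiglitazone males were 0.16 at day 3 and 0.28 at day 90, and in rosiglitazone females at day 28 0.13. Apart from this and the 2 Cycs calls, 0 members passed in the 18 comparisons, in which 0 to 8.46% of all genes were called (0.063% in high-dose females at day 28). The highest of these shares belonged to high-dose females at day 3, a group of 4 that includes the array with a correlation of 0.817. There 0 members were called in limma and 6 had an unadjusted p under 0.05, as had 27.4% of all genes.

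ATP synthase subunits were positive in 6, 7 and 7 of 8 cases, with medians of 0.10, 0.11 and 0.07, and 0 passed in limma over all times (2, 2 and 1 at an unadjusted p under 0.05). The beta subunit Atp5b, which carries the catalytic sites, gave the largest differences of the complex, 0.26, 0.25 and 0.29 with low- and high-dose pioglitazone and with rosiglitazone (limma adjusted p 0.253, 0.268 and 0.16). They were 0.16, 0.15 and 0.19 when vehicle replicate 1 of each group was left out. Its arrays were the most scattered of all members, from 11.47 to 12.95, 10.62 to 12.98 and 11.09 to 13.68 with the 3 treatments, against 9.91 to 12.88 with vehicle. Atp5d, the delta subunit of the central stalk, was the lowest, at -0.08, -0.10 and -0.14, and changed sign when both of its probes were averaged. Atp5o, the subunit that ties the head to the stalk, had the smallest p for high minus low dose (0.11, 95% interval 0.02 to 0.20, limma adjusted p 0.564).

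**Figure D5:**
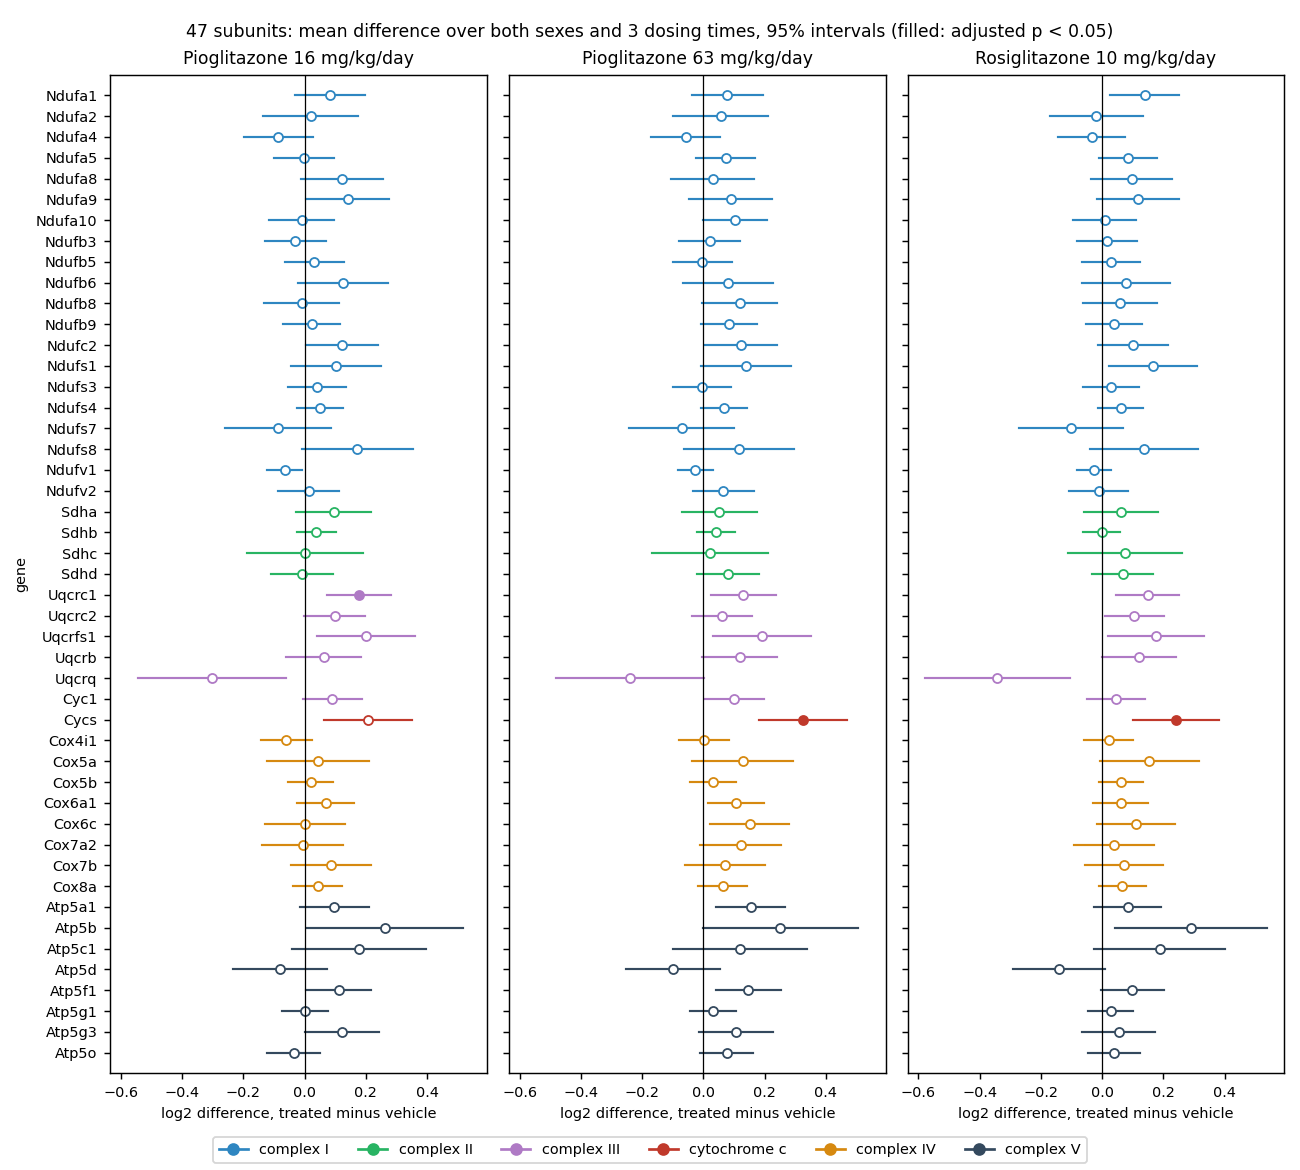
Log2 difference from vehicle of the 47 members, averaged over both sexes and 3 times, with 95% confidence intervals, coloured by complex, with one panel per treatment and filled points for called genes. Most points lie slightly right of 0 (34, 40 and 39 of 47 with low- and high-dose pioglitazone and with rosiglitazone), Cycs and Atp5b lie farthest right and Uqcrq farthest left.

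Over all members the median difference was 0.04, 0.08 and 0.06 with low- and high-dose pioglitazone and with rosiglitazone, against 0.01, -0.01 and 0.00 over all genes tested. Positive differences were found for 34, 40 and 39 of the 47, where 53.5%, 48.3% and 49.9% of all genes were positive. These medians are small and depended on the processing. With array weights they were 0.02, 0.05 and 0.05, against 0.03, 0.00 and 0.01 over all genes, so that the low-dose median no longer exceeded that of all genes. With the 3 arrays that failed quality control included, the medians at both pioglitazone doses were negative (-0.073 and -0.12) and 7 of 47 members were positive at each. Tests between conditions found no member that passed in limma. High minus low dose gave 0 (4 at an unadjusted p under 0.05, where 8.57% of all genes had such a p and 0% were called). The test across days gave 0 for each treatment (0, 5 and 8 at an unadjusted p under 0.05), where 3.98%, 5.91% and 10.7% of all genes had such a p and 0.00788%, 0.0158% and 0.0394% were called. Uqcrc1, Cyc1 and Cox4i1 had the smallest p there, with adjusted p of 0.999, 0.726 and 0.198. The female minus male effect gave 0 (2, 1 and 1 at an unadjusted p under 0.05, where 4.71%, 7.73% and 5.48% of all genes had such a p and 0% were called). The smallest p belonged to Cycs at -0.33, Cox6a1 at 0.23 and Ndufs3 at -0.22 (limma adjusted p 0.998, 0.586 and 0.864). High-dose and rosiglitazone values cannot be compared at matched dose, and no test was made between the drugs.

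In vehicle animals, 0 members differed between the sexes in limma (3 at an unadjusted p under 0.05, where 9.51% of all genes had such a p and 0.15% were called). The smallest p was that of Atp5a1, with a female minus male difference of -0.20 (adjusted p 0.362). Across days 1 member was called, Uqcrb, a small subunit of complex III, where 6.61% of all genes were called and 23% had an unadjusted p under 0.05. It read 13.91 to 14.46 at day 3, 13.82 to 14.26 at day 28 and 13.68 to 14.21 at day 90, with means of 14.22, 13.99 and 13.85 (SD 0.19, 0.14 and 0.18, n = 10 each, limma F test, adjusted p 0.0482). The ranges overlapped, and the call was lost without any one of the 5 vehicle replicates (limma adjusted p 0.061 to 0.292). Dosing time and the age of the animals cannot be told apart here.

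The members varied less between animals than most genes. Their within-group SD had a median of 0.22 against 0.40 over all tested genes, running from 0.10 for Ndufv1 to 0.49 for Atp5b, and 44 of the 47 lay below the all-gene median. Apart from Uqcrq, at 6.81 with an SD of 0.46, their mean log2 signals ran from 11.05 (Ndufs8) to 16.67 (Cox6a1). The tested genes reached down to 5.26, and the spread was not compared at matched signal. Within groups they also varied together to a modest degree, with a median pairwise correlation of 0.196 over 1081 pairs of members against 0.0267 over all pairs of genes, computed across the same 116 arrays. The closest pair was Atp5b and Atp5c1, the beta and gamma subunits of ATP synthase (r = 0.895), and the most opposed was Sdhc and Atp5d (r = -0.834). Atp5f1 followed the mean of the other members most closely (r = 0.804), and Uqcrq went against it (r = -0.185). Points of such correlations share the array, its labelling and its normalisation.

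Other genes of the same pathway gave few calls, where 1.61%, 2.72% and 2.51% of all genes rose with low- and high-dose pioglitazone and with rosiglitazone. Among 34 further subunits tested, 0 were called in limma with either pioglitazone dose (3 and 4 at an unadjusted p under 0.05) and 1 rose with rosiglitazone, Ndufab1 (0.22, limma adjusted p 0.0115), a carrier protein that serves complex I and mitochondrial fatty acid synthesis. Their medians were -0.01, 0.00 and 0.00, closer to all genes than those of the 47 members. Of 24 assembly factors, 1, 1 and 2 rose and 0 fell: Acad9, which helps assemble complex I, rose by 0.24, 0.28 and 0.27 with low- and high-dose pioglitazone and with rosiglitazone (limma adjusted p 0.000726, 2.52e-05 and 5.01e-05), and Sco1, which delivers copper to complex IV, rose by 0.19 with rosiglitazone (limma adjusted p 0.0246). Of the 3 genes of the electron transfer flavoprotein route 0 were called in limma (0, 0 and 1 at an unadjusted p under 0.05).

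Of 15 enzymes of the citric acid cycle and its entry step, 3 rose with the high dose of pioglitazone, 4 rose with rosiglitazone, and 0 were called in limma with the low dose (4 at an unadjusted p under 0.05) or fell with any treatment, where 2.72% and 2.51% of all genes rose at the high dose and under rosiglitazone. Fumarate hydratase Fh1 rose by 0.19 with the high dose and by 0.16 with rosiglitazone, the succinyl-CoA ligase subunit Suclg2 by 0.25 and 0.22, and Dlst, a component of the oxoglutarate dehydrogenase complex, by 0.15 and 0.12. Sucla2, another succinyl-CoA ligase subunit, rose by 0.22 with rosiglitazone. Among 9 carriers and uncoupling proteins of the inner membrane, the ADP/ATP carrier Slc25a4 rose by 0.50 (high dose) and 0.34 (rosiglitazone) (limma adjusted p 0.000128 and 0.0139), and Slc25a5 by 0.21 with high-dose pioglitazone. At day 90 Slc25a4 rose by 0.89 and 0.72 with these treatments (limma adjusted p 9.26e-05 and 0.00542).

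Of 15 tested regulators of mitochondrial genes 0 rose, and 1 fell with the high dose and also with rosiglitazone. It was Pparg, the drug target, with differences of -0.52 and -0.28 (limma adjusted p 7.24e-07 and 0.0169), and -0.23 with low-dose pioglitazone, which did not pass (0.0833). Esrra, Nrf1, Tfam and Ppargc1b, chosen after their values were seen, differed by -0.10 to 0.12 with the 3 treatments, none of them called. Ppargc1a and Esrrg lay under the signal filter and were not tested.

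Scraped tissue can hold cells from under the epithelium. At day 90 the 9 adipocyte markers tested had a median difference of 1.17 with high-dose pioglitazone, 0.72 with rosiglitazone and 0.04 with low-dose pioglitazone, and the 13 smooth muscle markers 0.73, 0.83 and 0.16, with 0 called in limma in either list. With the high dose all 9 adipocyte markers were positive. There 5 adipocyte markers and 1 smooth muscle marker had an unadjusted p under 0.05 in limma, as had 15.8% of all genes. With rosiglitazone 1 marker of each list had such a p (14.6% of all genes), and with the low dose 0 of each (6.96%). Their mean level per array ran from 6.64 to 11.72 for adipocyte markers with high-dose pioglitazone at day 90, against 6.46 to 8.08 with vehicle, and from 7.37 to 14.93 for smooth muscle markers, against 7.47 to 12.56. Of the adipocyte markers Lep and Plin1 lay under the filter, and Ucp1, the uncoupling protein of brown fat, differed by 0.15 at day 90 of the high dose without passing. With the mean adipocyte level of each array in the model, the day 90 differences with high-dose pioglitazone were 0.58 for Cycs, 0.37 for Atp5a1 and 0.31 for Atp5f1, and with the smooth muscle level 0.61, 0.34 and 0.32, all still called. The median over the 47 members was 0.10 with the adipocyte level, against 0.03 over all genes. Without a covariate these medians were 0.14 and 0.00, and with the smooth muscle level 0.14 and 0.01. The part of fat and muscle cells in the members' differences was not tested. The adipocyte markers themselves lay above vehicle at this dose and day, and more fat cells and more RNA per cell cannot be told apart in them. Whether the drugs act on these marker genes directly was not tested. Either model called 6 members, adding Ndufa1, Ndufc2 and Cyc1. The share of all genes called at day 90 was not counted for these models. Over all times at the high dose they called more of all genes, 1002 (adipocyte) and 1170 (smooth muscle) against 837 without a covariate.

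Of 10 leukocyte markers 5, 8 and 6 fell, where 2.84%, 6.6% and 5.63% of all genes were called in either direction, with median differences of -0.40, -0.45 and -0.38 for low- and high-dose pioglitazone and for rosiglitazone. At day 90 their mean level per array ran from 8.99 to 9.71 with high-dose pioglitazone, against 9.66 to 10.41 with vehicle, and 5 of 10 fell, where 4.24% of all genes were called. The mean level of the urothelial markers per array at day 90 averaged 14.61 with high-dose pioglitazone, with a highest array of 14.93 and a lowest of 14, against 14.59 with vehicle, with a highest of 14.84 and a lowest of 14.3. There 11 of 16 were positive, with a median difference of 0.15, and 1 fell, Foxa1 (-0.67, limma adjusted p 0.0326). Over all times Krt19 rose with each treatment and Foxa1 fell with the high dose.

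Of 4 erythrocyte markers, Slc4a1, the anion exchanger of red cells, fell with each treatment over all times, and the list had medians of -0.47, -0.56 and -0.28. At day 90 of the high dose its median was -0.485, with 0 of 4 called in limma and 0 at an unadjusted p under 0.05. Of 8 endothelial markers, Cldn5 fell with rosiglitazone over all times and Pecam1 at day 90 of the high dose, with list medians of -0.29 and -0.48. Of the 10 fibroblast and matrix markers and the 11 skeletal and cardiac muscle markers 0 were called in limma at day 90 of the high dose or over all times (at an unadjusted p under 0.05, 1 of each list at that day, and 5, 0 and 3 fibroblast and 0 muscle markers over all times). The part of leukocytes and of these other cells in the differences of the members was not tested.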

How the data were processed

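The values are log2 signals of 1-colour arrays as deposited. Their column medians are nearly equal between arrays, and what the authors did for background correction and normalisation was not given in the sources used here. Of the software, limma is listed per the submitters' processing notes, with no version and no stated use. All columns matched a sample by its label. A single gene symbol is attached to 20369 of the 30367 probes, and 9998 have none. Genes were represented by the probe of highest mean (3117 genes have several, 6 members among them), and the lowest 25% of genes by mean signal (under 5.26) were left out. All 47 members matched RefSeq by accession or symbol, where Atp5a1, Atp5b, Atp5c1, Atp5d, Atp5f1, Atp5g1, Atp5g3 and Atp5o carry newer names.

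A model with 24 group means was fitted to 116 arrays in R 4.3.3 by limma 3.58.1, using eBayes with its trend option (residual degrees of freedom 92, prior 3.95). Tables and plots used Python 3.11.15, pandas 2.3.3, numpy 2.4.6 and matplotlib 3.10.9. Fits were tested on simulated data. No pair of arrays held identical values. Precision is limited by how many arrays each group has.

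The members, lists and tests were chosen with earlier results of these data known. Named members are those called against vehicle, the highest and lowest of each complex per treatment, the smallest p of each other test, and Cycs and Uqcrc1. For other lists up to 5 called genes per treatment are named. Alternatives covered scaling, filter, probe choice, failing arrays, the model's trend, robust fitting, array weights, a replicate block, marker levels as covariates, and leaving out 2 arrays or each replicate.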

Additional observations from a re-analysis of the deposited data

Results flagged for a closer look

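Single arrays that stood apart from their group by Dixon's test were looked for among 7 quantities (Cycs, Uqcrc1, Atp5a1, Atp5f1, Cox8a, Uqcrb and the mean of all members) in 24 groups, which makes 168 groups, and chance alone marks about 1 group in 20. There were 18 such values, from 13 arrays.

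For Atp5a1 they were high-dose pioglitazone male day 28 replicate 4, low at 15.63, rosiglitazone female day 90 replicate 1, low at 15.57, and rosiglitazone male day 90 replicate 4, high at 16.62. The first and the second were also low for Atp5f1, at 14.35 and 14.55. For Cycs, low-dose pioglitazone female day 28 replicate 3 was high at 13.36 and rosiglitazone male day 90 replicate 4 high at 13.34. That same rosiglitazone male was high for Uqcrb, at 14.46, as were high-dose pioglitazone female day 90 replicate 1 at 14.28 and rosiglitazone male day 28 replicate 3 at 15.23, the array on which the Cox8a fall of that group depended.

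For Uqcrc1 low arrays were low-dose pioglitazone male day 3 replicate 5 at 12.42, vehicle male day 28 replicate 1 at 11.90 and vehicle male day 3 replicate 3 at 12.18. In the mean of all members, low arrays were high-dose pioglitazone female day 3 replicate 4 at 13.37, high-dose pioglitazone male day 3 replicate 1 at 13.52, rosiglitazone female day 3 replicate 5 at 13.31 and vehicle male day 3 replicate 3 at 13.17, and high-dose pioglitazone male day 90 replicate 2 was high at 13.85. The reason for these values was not tested.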

How the results depend on the processing

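Setting by setting, the numbers of called members that moved are these. With the 3 failing arrays included they were 0 for each treatment over all times, 0 at day 90 of high-dose pioglitazone, 22 within sexes and days for high-dose pioglitazone, 0 there for rosiglitazone and 0 across vehicle days, and the median over members became -0.073 with low-dose and -0.12 with high-dose pioglitazone. With array weights 3164, 1892 and 1989 of all genes were called over all times, against 361, 837 and 714 in the main fit. These weights gave 8 members with low-dose pioglitazone over all times and 1 and 9 at days 28 and 90. They gave 13 at day 90 of high-dose pioglitazone and 13 at day 90 of rosiglitazone. Within sexes and days they gave 4, 19 and 20, in the tests across days 4 for high-dose pioglitazone and 1 for rosiglitazone, 1 in the sex test of high-dose pioglitazone and 15 across vehicle days. At day 90 of high-dose pioglitazone the count was 9 after quantile normalisation, 5 with 75th percentile centring, 6 with the lowest 50% left out, 6 with either marker covariate and 5 without the 2 arrays of low correlation. At day 90 of rosiglitazone it was 2 after quantile normalisation and without those 2 arrays, and 1 with the 50% filter, the mean of a gene's probes or the smooth muscle covariate. Over all times high-dose pioglitazone had 837 of all genes called in the main fit. That number was 795 after quantile normalisation, 800 with 75th percentile centring and 806 with the 50% filter. It was 1170 with the smooth muscle and 1002 with the adipocyte covariate, and 830 without the 2 arrays. Shares of all genes called by day, or within sexes and days, were not counted under these settings. Such counts of members therefore stand without a background. The Uqcrc1 count of low-dose pioglitazone became 0 with 75th percentile centring, no filter, no trend or the adipocyte covariate and 2 with the mean of probes. Counts of 2 were found with the adipocyte covariate for high-dose pioglitazone over all times, and for rosiglitazone after quantile normalisation or without the 2 arrays. Within sexes and days, the adipocyte covariate gave 1 for low-dose and 3 for high-dose pioglitazone, and quantile normalisation, 75th percentile centring, no filter and no trend gave 1 for rosiglitazone. Across vehicle days the count was 0 with 75th percentile centring, no filter, no trend, the mean of probes or either covariate, and 2 with the 50% filter or without the 2 arrays.

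The replicate number marks no shared animal, and of 86 pairs of arrays with the same number 40 correlated over 0.1 in their deviations (mean 0.068). With the replicate block, the counts became 0 for low-dose pioglitazone over all times (Uqcrc1 at an adjusted p of 0.0562 in limma), 1 at day 90 of rosiglitazone (Cycs) and 1 within sexes and days for rosiglitazone (Cycs, with Cox8a lost at 0.0519).

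Without each replicate in turn, the counts over all times ranged from 0 to 2 for low-dose pioglitazone, 1 to 3 for high-dose pioglitazone and 0 to 3 for rosiglitazone. They ranged from 1 to 6 at day 90 of high-dose pioglitazone, 0 to 2 at day 90 of rosiglitazone, 1 to 3 and 1 to 5 within sexes and days for high-dose pioglitazone and rosiglitazone, and 0 to 1 across vehicle days. Signs changed for Sdhd with low-dose pioglitazone (-0.028 to 0.013), Cox4i1 with high-dose pioglitazone (-0.014 to 0.019), and with rosiglitazone Sdhc (-0.025 to 0.12), Sdhb (-0.016 to 0.012) and Cox4i1 (-0.011 to 0.041).

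Under other settings, signs turned as follows. The failing arrays gave -0.037 for Sdha, -0.13 for Uqcrfs1 and -0.12 for Cox7b with low-dose pioglitazone. With high-dose pioglitazone they gave -0.0081 for Ndufs1, -0.22 for Sdhd, -0.28 for Sdhc, -0.12 for Cox6c, -0.14 for Cox4i1 and -0.0085 for Uqcrc1, and beyond these 0.026 for the sex difference of Cycs and -0.086 for the dose difference of Atp5o. The mean of both Atp5d probes gave 0.12, 0.076 and 0.18 with the 3 treatments. Sdhd with low-dose pioglitazone became 0.0074 with the smooth muscle and 0.011 with the adipocyte covariate. Cox4i1 with high-dose pioglitazone became -0.0021 with 75th percentile centring, -0.027 with array weights, -0.0085 with the smooth muscle and -0.017 with the adipocyte covariate. Sdhc with rosiglitazone became -0.043 with array weights, and Sdhb 0.011 after quantile normalisation. The cause of these shifts was not tested. The adipocyte covariate and leaving out the 2 arrays of low correlation were chosen after seeing the data. The number of animals per group limits what could be called.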

Other observations

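Second probes exist for 6 of the members and did not all follow the first. Within groups, across 116 arrays, the probes correlated at 0.851 for Cox7a2, 0.818 for Atp5g3 and 0.653 for Cycs, but at 0.24 for Uqcrb, 0.0441 for Ndufs4 and -0.122 for Atp5d. The second probes of Uqcrb, Ndufs4 and Atp5d had mean log2 signals of 7.50, 6.10 and 6.04. Cox7a2, a subunit of complex IV, gave differences from vehicle at day 90 of 0.23 and 0.17 with high-dose pioglitazone and 0.26 and 0.26 with rosiglitazone for its first and second probe, none of them called.

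Across arrays, the mean of the 47 members followed the mean of the citric acid cycle enzymes within groups (r = 0.639, 116 arrays), more closely in value than the mean of the 34 further subunits (r = 0.389). It followed the means of the adipocyte and smooth muscle markers little (r = 0.136 and 0.0222). These are descriptions over arrays that share a normalisation.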
